A study of Mus musculus with 54 samples.

Results

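The 10 genes described here belong to the core cell cycle engine, in mouse muscle progenitors induced to differentiate. They are the cyclins Ccna2, Ccnb1, Ccnb2, Ccnd1, Ccnd2, Ccnd3, Ccne1 and Ccne2 and the cyclin-dependent kinases Cdk1 and Cdk2. The members were chosen by name, with earlier results of these data known, by matching the NCBI gene numbers of the files to these symbols. All 10 were listed in each of the 27 deposited tables, among 19653 gene entries that appear in at least 1 table, and all 10 passed the minimum described below in every table.

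Cyclins are regulatory subunits that bind and activate cyclin-dependent kinases, and most of them are made and destroyed in each round of division. D-type cyclins pair with Cdk4 and Cdk6 and answer to growth signals, cyclin E with Cdk2 acts at entry into DNA synthesis, cyclin A with Cdk2 and Cdk1 acts through DNA synthesis, and cyclin B with Cdk1 drives mitosis. In skeletal muscle, progenitors withdraw from the cycle before they fuse, the mitotic cyclins are then no longer made, and cyclin D3 is the D-type cyclin known to persist in differentiated muscle cells.

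RNA was sequenced from H2K myogenic progenitors of 6 lines at days 0, 1 and 2 of differentiation, which are 0, 24 and 48 h after the switch from proliferation medium with γ-interferon to low-serum differentiation medium. Wildtype progenitors carry emerin, an inner nuclear membrane protein whose loss causes Emery-Dreifuss muscular dystrophy. EMD-/y progenitors lack it, and the S54F, Δ95–99, Q133H and +EMD lines are EMD-/y progenitors transduced with lentivirus for the S54F, Δ95–99 or Q133H emerin mutant or for wildtype emerin. There are 54 samples in 18 groups, 3 labelled replicates each, and the labels also describe technical replicates within biological ones without tying samples to them.

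H2K cells are conditionally immortal: they carry a temperature-sensitive viral large T antigen under an interferon-inducible promoter, and every group shares this transgene. The methods name a higher temperature after the medium switch and list no γ-interferon in the differentiation medium. Conditions for the antigen therefore differ between day 0 and the later days. Its part in the ratios between days was not tested. The 4 transduced lines were selected with puromycin at doses that differed between lines, the labels give puromycin in both media for the mutant lines, and the mutant lines were plated more densely than wildtype and EMD-/y. Whether a transduced line is 1 clone or a pool was not given in the sources used here, and labels and methods name different temperatures for the proliferative culture.

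The files hold the authors' mean of normalized counts per group, with no value per sample, so a difference cannot be set against a spread between replicates and no test was possible. Ratios between lines or days below are ratios of 2 means within 1 table, unless they are said to be ratios of levels. A gene was counted as higher or lower when the means differed at least 2-fold, a log2 ratio of at least 1 in size, with the higher mean at least 10. The percentage of all genes past the same limit is given beside the counts of members as the background, and as its range over tables beside those of other gene lists. Levels are the median of the authors' means over the tables that hold a group, 2 to 7 tables each. Tables were normalized separately, and the highest table exceeded the lowest by 1.02 to 1.29 times for these genes.

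The means of a group summed to between 1.67e+07 and 2.11e+07 normalized counts, of which the 10 genes took 0.0938% to 0.244%. Emd itself was listed at means between 987 and 1962 in wildtype and between 0.141 and 3.52 in the other 5 lines, +EMD included, so it checks the EMD-/y background and not the transgenes. Myod1, which defines myogenic cells, lay between 6545 and 23881 in the 18 groups. The immune marker Ptprc reached at most 1.90, the endothelial markers Pecam1 and Cdh5 at most 13.0 and 10.2, and the adipocyte markers Adipoq and Plin1 at most 0.553 and 0.187. Pax7, a progenitor factor, was between 3.31 and 8.34 in the 3 Q133H groups and between 52.3 and 2186 in all other groups. Of the fibroblast and fibro-adipogenic genes, Col1a1 lay between 594 and 19131 and Col3a1 between 8152 and 25091, but Pdgfra only between 11.4 and 70.7. In such bulk samples, fewer cycling cells and less RNA of a gene per cell cannot be told apart.

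In wildtype progenitors at day 0, plated densely and not yet in differentiation medium, the 10 transcripts were all abundant, and their levels per length spanned less than 1 order of magnitude. Divided by gene length, the wildtype day 0 level was 2989.6 per kilobase for Ccnd3, 2677 for Ccnd1, 1890.0 for Ccna2, 1628 for Ccnb1, 1602 for Ccnb2 and 1188 for Cdk1. It was 808 for Ccne1, 746 for Cdk2, 474 for Ccnd2 and 377 for Ccne2. By day 2 the order was different. Ccnd3 stood at 6848 per kilobase and Cdk2 at 1084, while Ccna2, Ccnb1, Ccnb2 and Ccne2 were between 14.0 and 20.6.

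The plot of levels by day shows these profiles for every line. Wildtype at day 2 held the lowest of the 18 levels for 7 of the 10 genes, namely Ccna2, Ccnb1, Ccnb2, Ccnd1, Ccne1, Ccne2 and Cdk1. The lowest level of Ccnd2 was in +EMD at day 2, that of Ccnd3 in Q133H at day 1 and that of Cdk2 in Q133H at day 2. As a ratio of levels, which can come from different tables, the highest of the 18 exceeded the lowest 112-fold for Ccna2, 90.1-fold for Ccnb2, 80.5-fold for Ccnb1 and 60.3-fold for Ccne2. It did so 20.5-fold for Ccnd1 and 12.6-fold for Ccne1, but only 5.10-fold for Ccnd2, 4.23-fold for Cdk2 and 3.65-fold for Ccnd3. Neighbours in the order of the 18 levels cannot be separated beyond a replicate spread, and for between 4 and 10 of the 17 neighbouring pairs of a gene even the ranges over tables overlapped.

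**Figure D1:**
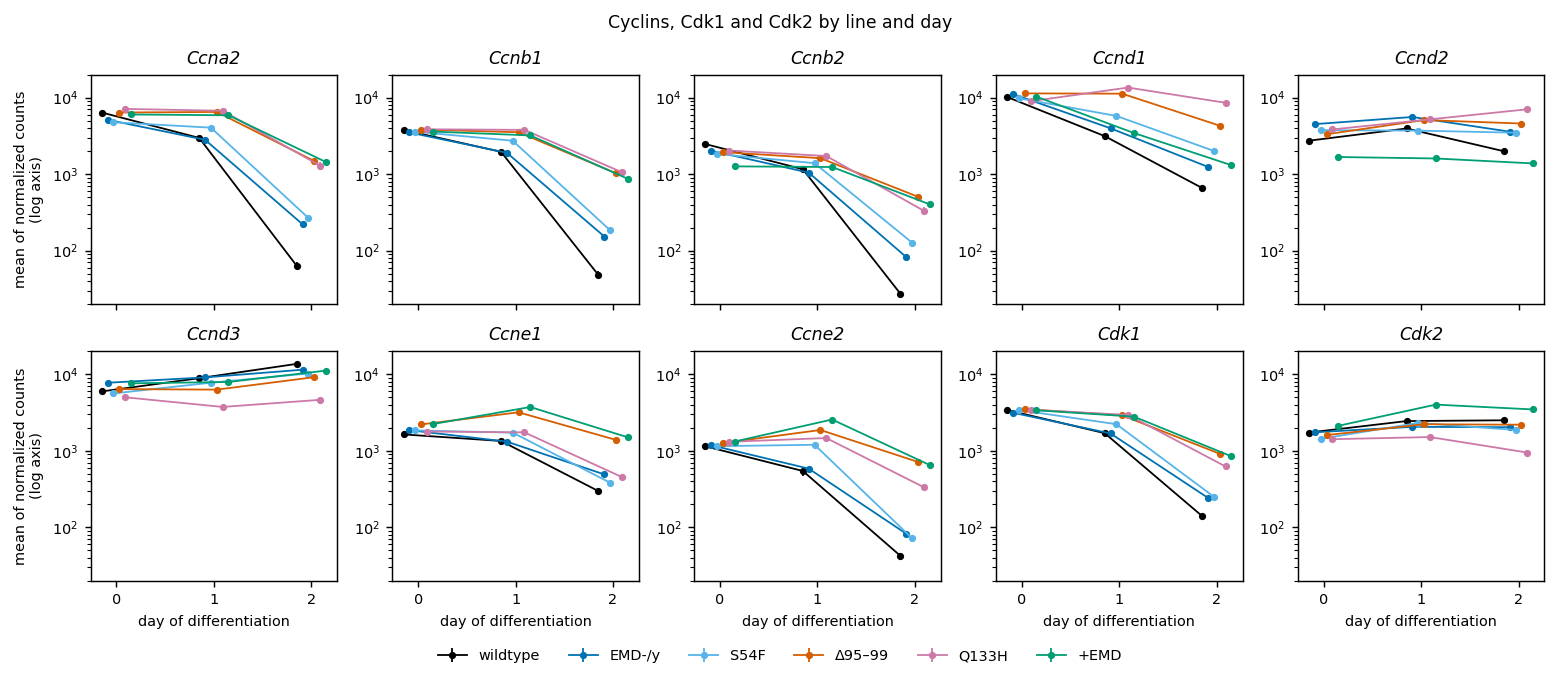
Authors' mean of normalized counts (log axis) of each gene against the day of differentiation for the 6 lines, slightly offset for clarity. Points are medians over the tables that hold a group and bars the lowest and highest table, not an error between replicates. Ccna2, Ccnb1, Ccne2 and Cdk1 start close together at day 0, Ccnb2 runs from 1261 in +EMD to 2469 in wildtype on that day, and all of them spread apart by day 2, where wildtype is lowest.

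Ccna2, Ccnb1, Ccnb2 and Cdk1 form the group for DNA synthesis and mitosis. Cyclin A2 serves both phases, cyclins B1 and B2 are the mitotic cyclins, and Cdk1 is the kinase they activate. Over the 18 groups, the genes whose log2 level followed Ccnb1 most closely were Ccna2 (Pearson r = 0.997), Ttk (0.997) and Sgo1 (0.996), out of 11030 named genes with a mean of at least 10 in every table. Ccnb2 and Cdk1 had r = 0.988 and 0.983 with Ccnb1, Ccne2 0.961, Ccne1 0.883 and Ccnd1 0.868, whereas Ccnd2 had 0.17, Cdk2 -0.17 and Ccnd3 -0.71. These values describe 18 group means that share lines, days and libraries, and they carry no p-value.

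Genes of this group are known to carry CCAAT boxes and a cell cycle homology element with the letters TTTGAA close to their starts. The symbols of 6 of the 10 genes, Ccnb1, Ccnb2, Ccnd3, Ccne1, Cdk1 and Cdk2, matched RefSeq's GRCm38.p6 set of upstream sequences. Shown for 3 genes whose levels moved together and for Cdk2, whose level did not follow theirs, are the 120 bases before the first start that RefSeq or GENCODE gives, read on the minus strand. They lie at chr13:100786571-100786690, chr9:70421555-70421674, chr10:69352939-69353058 and chr10:128705052-128705171. Capitals mark both motifs, in the spelling above or, where a motif lies on the other strand, as ATTGG for the first and TTCAAA for the second.
Ccnb1: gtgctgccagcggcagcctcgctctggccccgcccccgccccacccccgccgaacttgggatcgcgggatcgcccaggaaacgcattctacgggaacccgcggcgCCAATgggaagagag
Ccnb2: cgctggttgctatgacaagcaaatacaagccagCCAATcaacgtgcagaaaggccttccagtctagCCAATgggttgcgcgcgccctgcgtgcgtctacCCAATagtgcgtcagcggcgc
Cdk1: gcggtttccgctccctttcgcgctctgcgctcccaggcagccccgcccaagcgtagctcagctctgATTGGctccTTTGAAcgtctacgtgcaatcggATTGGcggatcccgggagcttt
Cdk2: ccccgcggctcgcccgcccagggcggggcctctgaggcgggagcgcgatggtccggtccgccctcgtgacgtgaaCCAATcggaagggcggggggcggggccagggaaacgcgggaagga
In the 250 bases before the RefSeq start, CCAAT in either orientation was found 2 times for Ccnb1, 3 times for Ccnb2, 3 times for Cdk1 and 1 time for Cdk2. TTTGAA in either orientation was found 1 time for Ccnb2, 2 times for Cdk1 and 0 times for Ccnb1 and Cdk2. Of all 32851 upstream sequences of this length, 33.8% held CCAAT and 16.0% held TTTGAA, and 0 pairs of matches before these genes shared a base. Matches outside the 120 bases shown are 1 CCAAT before Ccnb1, 1 TTTGAA before Ccnb2, and 1 CCAAT and 1 TTTGAA before Cdk1. Of these, the CCAAT of Ccnb1 and the TTTGAA of Cdk1 begin 67 and 15 bases before the RefSeq start. Both lie between the RefSeq start and the GENCODE start, within the GENCODE gene. For Ccnd3, which has 2 starts, CCAAT was found 1 time before the second start, and before the Ccne1 start neither motif was found. Sequences of Ccna2, Ccnd1, Ccnd2 and Ccne2 are not shown. A match of letters does not show that a factor binds there.

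In wildtype progenitors, this group was lower at day 1 than at day 0 and lowest at day 2. The level of Ccna2 was 6381, 2968 and 63.4 at days 0, 1 and 2, and that of Ccnb1 3772, 1955 and 47.8. Ccnb2 stood at 2469, 1157 and 27.4, and Cdk1 at 3398, 1696 and 140.0. The step from day 1 to day 2 was the larger one, with means 40.5-fold lower for Ccna2, 36.0-fold for Ccnb1, 37.0-fold for Ccnb2 and 10.6-fold for Cdk1.

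At day 0, the time of the medium switch, none of the 10 genes was past 2-fold against wildtype in any line. The background was 5.18% of all genes higher and 3.94% lower in EMD-/y, 6.00% and 6.32% in S54F, and 5.82% and 6.92% in Δ95–99. It was 6.45% and 8.67% in Q133H and 6.30% and 11.0% in +EMD. Ccnb1 and Cdk1 lay closest to wildtype, with log2 ratios between -0.10 and -0.02 and between -0.10 and -0.01 over the 5 lines. The widest gap was that of Ccnb2 in +EMD, at -0.98, with a level of 1261 against 2469. Ccnd2 was next, with 0.73 in EMD-/y and -0.72 in +EMD.

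From day 0 to day 1, Ccna2, Ccnb2 and Cdk1 were past 2-fold lower in wildtype, and Ccna2, Ccnb1, Ccnb2 and Cdk1 were short of 2-fold in all 5 other lines. Their log2 ratios in EMD-/y were between -0.90 and -0.81, and those in the transduced lines between -0.62 and 0.04. In wildtype, 5 of the 10 genes were past 2-fold lower and 0 higher, against 10.6% and 12.7% of all genes. These were Ccna2, Ccnb2, Ccnd1, Ccne2 and Cdk1, with log2 ratios of -1.11, -1.10, -1.69, -1.10 and -1.01, and Ccnb1 at -0.96 was just short of the limit. Centred on the median gene of its table, Cdk1 in wildtype was just short of it too. In EMD-/y, 1 gene was lower and 0 higher (background 9.67% and 12.2%), Ccnd1 at -1.43, although Ccna2, Ccnb1, Ccnb2, Ccne2 and Cdk1 lay between -0.94 and -0.81. No gene was past the limit in S54F (7.49% lower and 9.62% higher), Δ95–99 (6.96% and 7.53%) or Q133H (6.60% and 5.95%). In +EMD, Ccnd1 at -1.57 was the 1 gene lower, with 0 higher, against 7.17% and 10.7%. Ccna2 gives the pattern in 1 gene: its ratio was -1.11 in wildtype, -0.81 in EMD-/y, -0.04 in +EMD, -0.08 in Q133H, 0.04 in Δ95–99 and -0.24 in S54F.

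From day 1 to day 2, the same 7 genes, Ccna2, Ccnb1, Ccnb2, Ccnd1, Ccne1, Ccne2 and Cdk1, were past 2-fold lower in every line, except that Ccnd1 in Q133H stayed short of it, and none of the 10 was past 2-fold higher in any line. That made 7 of 10 genes lower in wildtype (background 12.2% lower and 8.14% higher), in EMD-/y (11.4% and 7.81%) and in S54F (11.4% and 9.54%). It made 7 in Δ95–99 (5.49% and 9.17%), 6 in Q133H (4.54% and 6.55%) and 7 in +EMD (9.85% and 11.2%). The size differed widely. The log2 ratio of Ccnb1 was -5.17 in wildtype, -3.44 in EMD-/y, -1.74 in +EMD, -1.70 in Q133H, -1.68 in Δ95–99 and -3.71 in S54F. That of Cdk1 was -3.40 in wildtype, -2.60 in EMD-/y, -1.58 in +EMD, -2.10 in Q133H, -1.57 in Δ95–99 and -2.97 in S54F. Wildtype had the most negative ratio for Ccna2, Ccnb1, Ccnb2, Ccnd1 and Cdk1, and S54F for Ccne1 and Ccne2.

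**Figure D2:**
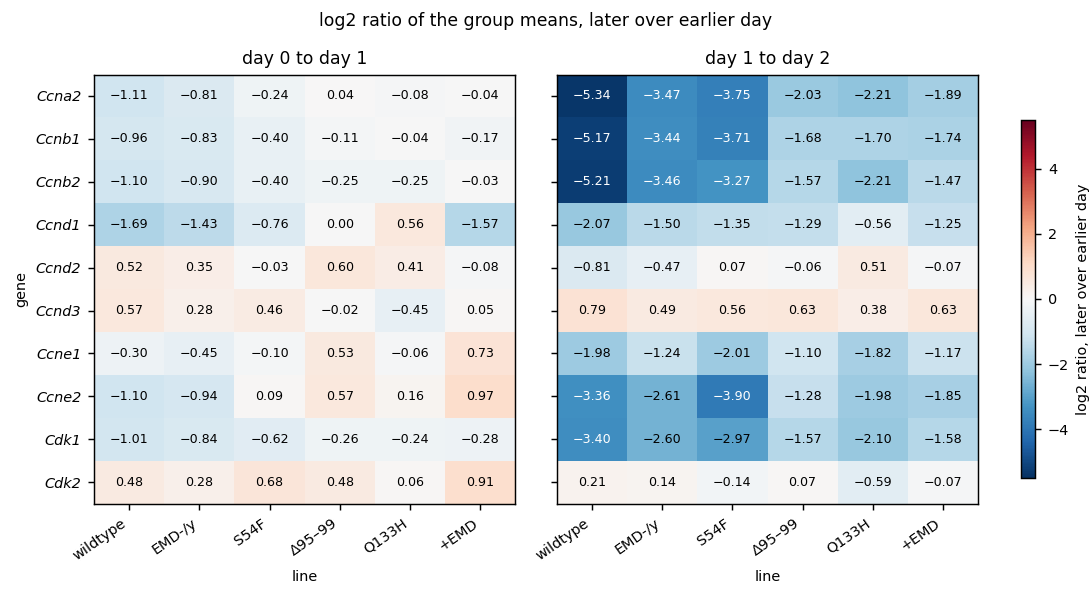
Log2 ratio of the authors' group means, later over earlier day, for the 10 genes (rows) in the 6 lines (columns), with day 0 to day 1 on the left and day 1 to day 2 on the right. Blue cells are lower at the later day. From day 1 to day 2, Ccna2 runs from -5.34 in wildtype to -1.89 in +EMD, while Ccnd3 is between 0.38 and 0.79 in all lines.

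Set beside wildtype's own step from day 1 to day 2, the log2 ratio of Ccna2 was less negative by 1.87 in EMD-/y, 3.45 in +EMD, 3.13 in Q133H, 3.31 in Δ95–99 and 1.59 in S54F. For Ccnb1 the gap was 1.73 in EMD-/y, 3.43 in +EMD, 3.47 in Q133H, 3.48 in Δ95–99 and 1.46 in S54F. All 5 lines are set against the same wildtype step, so these gaps are not independent of each other. The gaps of the 10 genes were also computed the other way round, from the line against wildtype ratios of the 2 days. The 2 ways differed by a median of 0.02 and at most 0.26. That largest difference was for Ccna2 in Q133H, where Ccnb1 had 0.18 and Cdk2 0.006. Why it differed between genes was not tested. Scaling both means of a table to the same sum shifted its log2 ratios by up to 0.27 and moved the share of higher among all genes past 2-fold, from 40.0% to 28.0% in wildtype, from 40.6% to 24.1% in EMD-/y and from 45.5% to 27.8% in S54F. It moved it from 62.6% to 50.4% in Δ95–99 and from 53.3% to 35.4% in +EMD, and it left the 7 lower genes named above lower.

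Against wildtype at day 1, Δ95–99, Q133H and +EMD each had 2 or more members past 2-fold higher, S54F had 1 and EMD-/y had none. EMD-/y had 0 of 10 genes past 2-fold in either direction, against 4.79% higher and 2.89% lower of all genes. S54F had 1 higher and 0 lower (5.84% and 6.69%), which was Ccne2 at 1.12. Δ95–99 had 4 higher and 0 lower (9.05% and 12.3%), namely Ccna2 at 1.06, Ccnd1 at 1.77, Ccne1 at 1.17 and Ccne2 at 1.69. Q133H had 3 higher and 1 lower (9.70% and 14.9%), with Ccna2 at 1.10, Ccnd1 at 2.00 and Ccne2 at 1.38 higher and Ccnd3 at -1.36 lower. +EMD had 2 higher and 1 lower (9.20% and 10.9%), with Ccne1 at 1.46 and Ccne2 at 2.19 higher and Ccnd2 at -1.30 lower. Ccnb1, Ccnb2 and Cdk1 were short of the limit in all 5 lines at this day, with highest log2 ratios of 0.86, 0.48 and 0.72.

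Against wildtype at day 2, every line held more Ccna2, Ccnb1 and Ccnb2, and Δ95–99, Q133H and +EMD held the most. The Ccna2 level was 63.4 in wildtype, 221 in EMD-/y, 1438 in +EMD, 1288 in Q133H, 1483 in Δ95–99 and 267 in S54F. The Ccnb1 level was 47.8 in wildtype, 153 in EMD-/y, 869 in +EMD, 1058 in Q133H, 1026 in Δ95–99 and 184 in S54F, and the Ccnb2 level was 27.4 in wildtype, 82.6 in EMD-/y, 403 in +EMD, 333 in Q133H, 506 in Δ95–99 and 127 in S54F. The wildtype means were between 25.6 and 72.0 over these 3 genes and all tables, and the lowest mean of any other line in a table was 78.3 on that day. EMD-/y and S54F were 3.05 to 4.51-fold over wildtype on these genes, and Δ95–99, Q133H and +EMD were 9.77 to 22.2-fold over it. Cdk1 was 140.0 in wildtype, 242 in EMD-/y, 845 in +EMD, 622 in Q133H, 913 in Δ95–99 and 251 in S54F, which gave log2 ratios over wildtype of 0.83 in EMD-/y, 2.56 in +EMD, 1.90 in Q133H, 2.54 in Δ95–99 and 0.83 in S54F.

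Counted over the 10 genes at day 2, EMD-/y had 3 higher and 0 lower, against 5.02% and 2.96% of all genes, and Ccne2 and Ccnd1 were just short of the limit. S54F had 4 higher and 0 lower (6.10% and 5.03%), Δ95–99 had 8 higher and 0 lower (13.4% and 9.10%), and Q133H had 7 higher and 2 lower (18.2% and 15.6%). +EMD had 6 higher and 0 lower (10.9% and 7.81%). The median log2 ratio of the 10 genes was 0.92 in EMD-/y, 2.42 in +EMD, 2.30 in Q133H, 2.54 in Δ95–99 and 0.80 in S54F, and the median of all genes was within 0.02 of 0 in each of the 27 tables. With both means scaled to the same sum, the share of higher among all genes past 2-fold went from 59.6% to 69.8% in Δ95–99 and from 53.8% to 64.5% in Q133H.

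**Figure D3:**
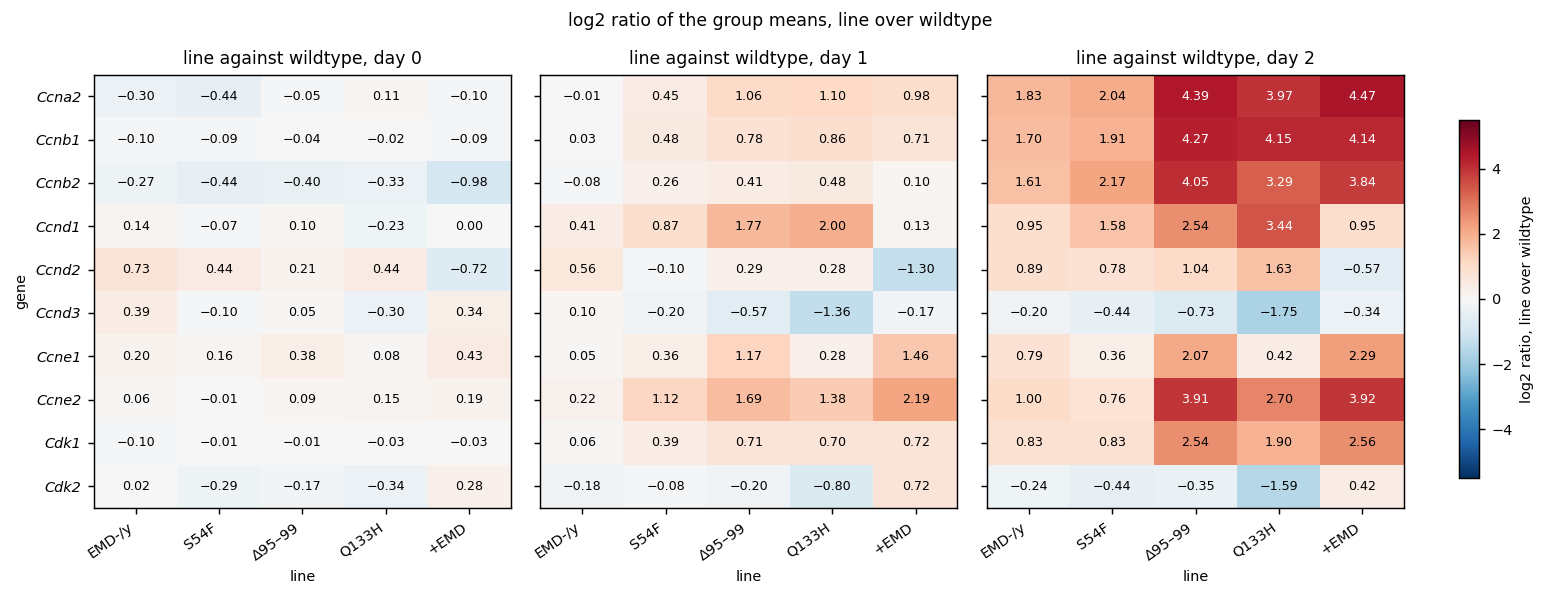
Log2 ratio of the authors' group means, line over wildtype, for the 10 genes (rows) in the 5 lines (columns) at days 0, 1 and 2. Red cells are higher than wildtype. The day 0 panel stays between -0.98 and 0.73, and the day 2 panel reaches 4.47 for Ccna2 in +EMD.

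On the mitotic genes the add-back line was not close to wildtype at day 2. At day 2, +EMD had a Ccna2 level of 1438, a Ccnb1 level of 869 and a Cdk1 level of 845, near those of Δ95–99 at 1483, 1026 and 913. EMD-/y, from which +EMD was derived, had 221, 153 and 242. The Ccnd1 level at day 1 was 3442 in +EMD, 3137 in wildtype and 3968 in EMD-/y, and at day 2 it was 1309, 658 and 1241. No deposited table sets +EMD against EMD-/y, so these levels come from separately normalized tables.

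The 3 D-type cyclins had different profiles. Cyclin D1 answers to mitogens, and its transcript was at 10163 in wildtype, 11102 in EMD-/y, 10270.0 in +EMD, 8952 in Q133H, 11345 in Δ95–99 and 9788 in S54F at day 0. At day 1 it was 3137 in wildtype, 3968 in EMD-/y, 3442 in +EMD, 13513 in Q133H, 11238 in Δ95–99 and 5758 in S54F, so that wildtype, EMD-/y and +EMD were past 2-fold below their day 0 levels and Q133H was above its own. At day 2 it was 658 in wildtype, 1241 in EMD-/y, 1309 in +EMD, 8550.0 in Q133H, 4294 in Δ95–99 and 2008 in S54F. Q133H held the highest Ccnd1 level at both later days, with log2 ratios to wildtype of 2.00 and 3.44. The named genes with the log2 profile most like Ccnd1 over the 18 groups were Gpr137b (r = 0.974), Eps8 (0.972) and Arf6 (0.969), again as a description without a p-value.

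Cyclin D2 was past 2-fold in none of the 12 ratios between days. The Ccnd2 level in +EMD was 1672, 1599.8 and 1378 at days 0, 1 and 2, the lowest of the 6 lines on each day. In Q133H it was 3830.1, 5194 and 7028, and in wildtype 2734, 3945 and 1989. At day 2 Ccnd2 was past 2-fold higher than wildtype in Δ95–99 at 1.04 and in Q133H at 1.63, on the log2 scale.

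Cyclin D3, the D-type cyclin of differentiated muscle, was higher at day 2 than at day 1 in each line. Its wildtype level was 5955, 8872 and 13642 at days 0, 1 and 2, and from day 1 to day 2 its log2 ratio was positive in all 6 lines, between 0.38 and 0.79, short of 2-fold in each. Q133H had 4990.4, 3735 and 4625, past 2-fold below wildtype at day 1 and, at -1.75 on the log2 scale, at day 2. In the other lines the day 2 ratio to wildtype was between -0.73 and -0.20.

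Shares within a group do not change when all its means in a table are scaled by the same factor, and per length they can be compared between genes. Of the summed level per kilobase of the 3 D-type cyclins, Ccnd1 made up 43.6% in wildtype, 38.6% in EMD-/y, 39.7% in +EMD, 42.7% in Q133H, 44.1% in Δ95–99 and 42.7% in S54F at day 0. At day 1 its share was 13.9% in wildtype, 15.9% in EMD-/y, 17.6% in +EMD, 56.2% in Q133H, 42.3% in Δ95–99 and 25.1% in S54F. At day 2 it was 2.36% in wildtype, 4.88% in EMD-/y, 5.58% in +EMD, 38.9% in Q133H, 17.4% in Δ95–99 and 8.45% in S54F, and Ccnd3 took 92.9% in wildtype, 85.8% in EMD-/y, 90.6% in +EMD, 40.1% in Q133H, 70.5% in Δ95–99 and 81.9% in S54F. The Ccnd1 shares of the 6 lines were close at day 0, and at day 2 they ran from wildtype over EMD-/y, +EMD, S54F and Δ95–99 to Q133H. A share differed by at most 1.71 percentage points between the tables that hold the same group, which is not a replicate error.

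**Figure D4:**
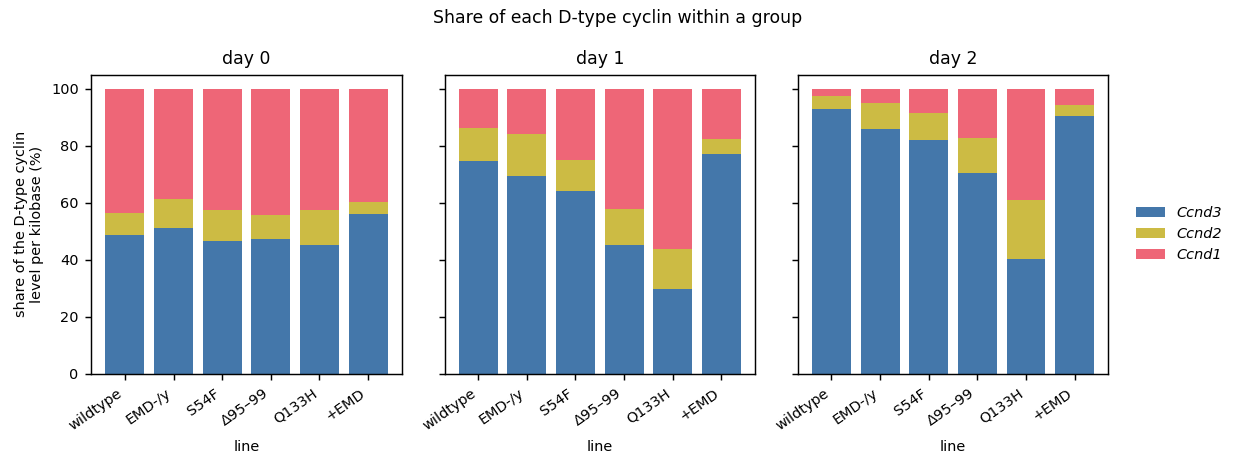
Share (%) of Ccnd1, Ccnd2 and Ccnd3 in the summed level per kilobase of the 3 D-type cyclins, for the 6 lines at days 0, 1 and 2, as medians over the tables that hold a group. Ccnd3 takes 92.9% in wildtype and 40.1% in Q133H at day 2.

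The E-type cyclins activate Cdk2 for entry into DNA synthesis. At days 1 and 2, Ccne1 was past 2-fold higher than wildtype in Δ95–99 and +EMD and not in Q133H, whereas Ccne2 was past it in all 3 of these lines. The Ccne1 level was 1341 in wildtype, 1314 in EMD-/y, 3725 in +EMD, 1737 in Q133H, 3176 in Δ95–99 and 1724 in S54F at day 1. At day 2 it was 297 in wildtype, 489.9 in EMD-/y, 1499 in +EMD, 453 in Q133H, 1385 in Δ95–99 and 381 in S54F. Δ95–99 and +EMD were 4.21 and 4.90-fold over wildtype at day 2, and Q133H was 1.33-fold over it, although Q133H had Ccna2 and Ccnb1 levels near those of the other 2 lines. Ccne2 was 543 in wildtype, 584 in EMD-/y, 2559 in +EMD, 1465 in Q133H, 1866 in Δ95–99 and 1197 in S54F at day 1. At day 2 it was 42.4 in wildtype, 82.4 in EMD-/y, 651 in +EMD, 334 in Q133H, 715 in Δ95–99 and 71.9 in S54F. From day 0 to day 1, Ccne2 had a negative log2 ratio in wildtype and EMD-/y, -1.10 and -0.94, and a positive one in the 4 transduced lines, from 0.09 in S54F to 0.97 in +EMD. Of the 2 transcripts per kilobase, Ccne1 made up 67.2% to 72.4% at day 0. At day 2 its share was 91.3% in wildtype, 90.1% in EMD-/y, 77.6% in +EMD, 67.0% in Q133H, 74.4% in Δ95–99 and 89.1% in S54F.

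Cdk2 did not follow Cdk1. Cdk2, the partner of cyclins E and A, had wildtype levels of 1729.9, 2440.1 and 2499, and none of its 12 ratios between days was past 2-fold. At day 2 the Cdk2 level was 2499 in wildtype, 2028 in EMD-/y, 3462 in +EMD, 946 in Q133H, 2186 in Δ95–99 and 1867 in S54F, which put Q133H past 2-fold below wildtype at -1.59 on the log2 scale and left the other lines between -0.44 and 0.42. Of the summed level per kilobase of the 2 kinases, Cdk1 made up 56.4% to 66.2% at day 0. At day 2 it made up 4.28% in wildtype, 8.62% in EMD-/y, 16.4% in +EMD, 34.2% in Q133H, 25.1% in Δ95–99 and 9.63% in S54F.

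Q133H held D-type cyclins and Cdk2 at other levels than Δ95–99 and +EMD. At day 2 its log2 ratios to wildtype were 3.44 for Ccnd1, 1.63 for Ccnd2, -1.75 for Ccnd3 and -1.59 for Cdk2. Those of Δ95–99 were 2.54, 1.04, -0.73 and -0.35, and those of +EMD 0.95, -0.57, -0.34 and 0.42. The 5th to 95th percentile of all genes at day 2 was -2.84 to 2.49 in Q133H, -1.54 to 1.92 in Δ95–99 and -1.40 to 1.75 in +EMD. In Q133H and Δ95–99, Ccnd1 lay above this range and Ccnd2, Ccnd3 and Cdk2 lay within it. In +EMD all of them lay within it.

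The 10 genes have these positions in GRCm38. Ccna2 is at chr3:36564865-36572150, Ccnb1 at chr13:100778650-100786570, Ccnb2 at chr9:70407692-70421547, Cdk1 at chr10:69335146-69352938 and Cdk2 at chr10:128697939-128705031. Ccnd1 is at chr7:144929931-144939925, Ccnd2 at chr6:127125162-127152193, Ccnd3 at chr17:47505051-47599691, Ccne1 at chr7:38097984-38107534 and Ccne2 at chr4:11191351-11204779. Exons of genes on the opposite strand overlap Ccnd1 by 1100 bases (LTO1), Ccne2 by 609 (Ints8), Ccna2 by 510 (Exosc9), Ccnd3 by 361 (Bysl) and Cdk2 by 34 (Pmel), and Ccnd2 shares 372 and 368 bases with 2 antisense genes. Whether reads were counted by strand was not given in the sources used here, and without strand the reads of such a pair cannot be told apart. Over the 27 tables the log2 ratio of Ints8 was between -0.45 and 0.46, that of LTO1 between -0.40 and 0.73, that of Exosc9 between -0.93 and 1.26 and that of Bysl between -1.07 and 0.80. Ccnb1 has 3 near-identical processed pseudogenes, the closest with 99.2% identity over 1287 bases, and none of the 3 is listed in a table, so its counts are uncertain to that extent. Ccnb1, Ccnb2, Ccne1 and Cdk1 overlap no gene on the opposite strand.

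Of 18 cyclins outside the set, 13 to 16 passed the minimum in a table, and over the 6 tables from day 1 to day 2 they gave 9 ratios past 2-fold lower and 1 higher among 87, against 4.54% to 12.2% lower and 6.55% to 11.2% higher of all genes. Ccnf, a substrate receptor that like cyclin A peaks late in the cycle, was past 2-fold lower in all 6 lines, between -3.36 and -1.54 on the log2 scale. Against wildtype at day 2 it was at 0.23 in EMD-/y, 2.12 in +EMD, 2.49 in Q133H, 2.31 in Δ95–99 and 0.28 in S54F, and at day 1 its median over the 5 lines was 1.09. Ccng1, a cyclin induced by p53, was past 2-fold higher from day 0 to day 1 in all 6 lines, between 1.45 and 3.12, with a mean going from 6549.9 to 45065 in wildtype. At day 0 against wildtype, among the 14 cyclins whose higher mean reached 10 in every table, the widest median was that of Ccnj, 0.49. Ccnjl, named here after its values were seen, was past 2-fold higher at day 0 in EMD-/y, S54F and Δ95–99, with a median log2 ratio of 1.33 over the 5 lines and higher means of 7.53 to 32.8.

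Of 18 other cyclin-dependent kinases, 17 were listed and 16 passed the minimum in each table, and 2 of 80 ratios to wildtype at day 2 were past 2-fold higher and 0 lower, against 5.02% to 18.2% and 2.96% to 15.6% of all genes. From day 1 to day 2, 8 of 96 were lower and 0 higher, against 4.54% to 12.2% and 6.55% to 11.2%. Cdk6, the partner of D-type cyclins, had the largest median from day 0 to day 1, -1.18, and ran from -1.67 in EMD-/y to -0.06 in Q133H. Cdk4, the other partner, had the largest median against wildtype at day 2, 0.88, from 0.32 in EMD-/y to 1.18 in Q133H. Cdk19, a kinase of the Mediator complex, had -1.32 from day 1 to day 2, Cdk14 had -0.48 against wildtype at day 1, and Cdk20 had 0.53 at day 0.

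Direct regulators of the complexes, which are phosphatases, inhibitory kinases, Cks subunits and CDK inhibitors, gave 24 of 80 ratios past 2-fold higher and 3 lower against wildtype at day 2, with 5.02% to 18.2% and 2.96% to 15.6% of all genes. From day 1 to day 2 they gave 40 of 96 lower and 3 higher, with 4.54% to 12.2% and 6.55% to 11.2% of all genes. Cdc25c, the phosphatase that activates Cdk1 at mitosis, led the list in both families, with log2 ratios of -4.09 in wildtype and -1.95 in Δ95–99 from day 1 to day 2. Against wildtype at day 2 it was at 0.49 in EMD-/y, 2.95 in +EMD, 2.84 in Q133H, 3.09 in Δ95–99 and 1.30 in S54F, from wildtype means of 10.7 to 12.9 close to the minimum of 10.

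Cdkn1c, which encodes the CDK inhibitor p57, led the same list at the earlier steps and differed between lines at day 0, the time of the medium switch. At day 0 its mean was 146 in wildtype, in the table with EMD-/y, and 2612 in EMD-/y, 2124 in +EMD, 176 in Q133H, 605 in Δ95–99 and 1409 in S54F. At day 1 its log2 ratio to wildtype was 2.80 in EMD-/y, 2.63 in +EMD, -3.36 in Q133H, -0.59 in Δ95–99 and 2.70 in S54F. In Q133H its mean at day 1 was 296, against 3047 in wildtype. From day 0 to day 1 the ratio was past 2-fold higher in every line but Q133H, where it was 0.65.

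Among 7 genes of cyclin degradation, 13 of 35 ratios were past 2-fold higher and 1 lower against wildtype at day 2 (all genes 5.02% to 18.2% and 2.96% to 15.6%). From day 1 to day 2, 16 of 42 were lower and 3 higher (all genes 4.54% to 12.2% and 6.55% to 11.2%). Cdc20, an activator of the ligase that destroys cyclin B, had log2 ratios to wildtype of 1.19 in EMD-/y, 3.34 in +EMD, 3.57 in Q133H and 3.50 in Δ95–99 at day 2, with S54F between EMD-/y and the other lines. Fbxo5, an inhibitor of that ligase, was between -4.35 in wildtype and -1.79 in Δ95–99 from day 1 to day 2, and its median against wildtype at day 1 was 1.30. Fbxw7, which targets cyclin E, had a median of 0.79 from day 0 to day 1, and Fbxo31, which targets cyclin D1, one of 0.58 against wildtype at day 0.

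Most proliferation markers were past 2-fold higher in the lines with the highest Ccna2 and Ccnb1 levels. At day 2, 17 of 17 were past 2-fold higher than wildtype in Δ95–99, 16 in +EMD, 15 in Q133H and 7 each in S54F and EMD-/y, and none was past 2-fold lower, against 5.02% to 18.2% of all genes higher and 2.96% to 15.6% lower. Birc5, a mitotic survival factor, had the largest median over the lines, 3.80. Mki67, the gene of the Ki-67 antigen, had a level of 72.5 in wildtype, 365 in EMD-/y, 2576 in +EMD, 1026 in Q133H, 2505 in Δ95–99 and 345 in S54F at day 2, and its log2 ratio from day 1 to day 2 ran from -5.74 in wildtype to -1.71 in Δ95–99. Tk1, thymidine kinase, had the largest median at day 1, 1.48, and at day 0, -0.27.

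**Figure D5:**
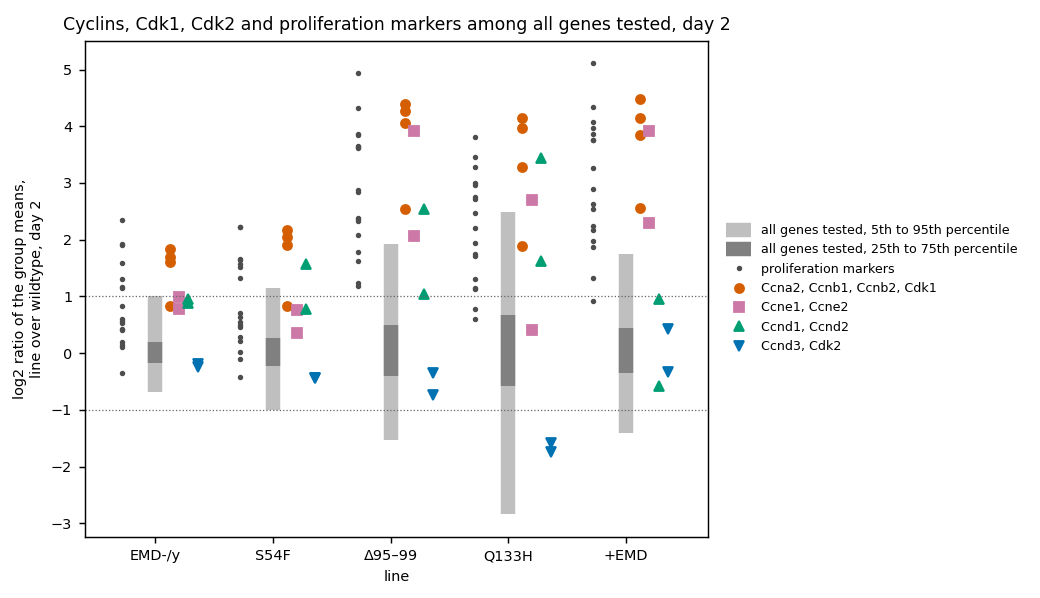
Log2 ratio of the group means, line over wildtype, at day 2 for the 10 genes (coloured symbols), the 17 proliferation markers (dots) and all genes tested (bars, 5th to 95th and 25th to 75th percentile), with dotted lines at 2-fold. The 95th percentile of all genes is 1.00 in EMD-/y and 2.49 in Q133H, and Ccna2, Ccnb1 and Ccnb2 lie above it in all 5 lines.

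At days 1 and 2, markers of muscle differentiation were lower in the lines with the highest Ccna2 and Ccnb1 levels. They already differed at day 0, with a summed level of 68137 in wildtype, 136220 in EMD-/y and 48066 in +EMD. It was 59233 in Q133H, 34871 in Δ95–99 and 82347 in S54F. On that day 12 were past 2-fold below wildtype in Δ95–99, 5 in +EMD, 2 in Q133H and 0 in S54F and EMD-/y. Past 2-fold higher were 4 in EMD-/y, 1 each in S54F, Δ95–99 and +EMD and 0 in Q133H. Of all genes, 3.94% to 11.0% were lower and 5.18% to 6.45% higher. All 18 passed the minimum of 10 in every group, and their summed level at day 1 was 372768 in wildtype, 410502 in EMD-/y, 160012 in +EMD, 28499 in Q133H, 44505 in Δ95–99 and 278997 in S54F. At day 2 it was 1217392 in wildtype, 1287089.6 in EMD-/y, 931173 in +EMD, 209783 in Q133H, 592212 in Δ95–99 and 1248298 in S54F. At day 1, 18 of 18 were past 2-fold below wildtype in Δ95–99, 18 in Q133H, 15 in +EMD, 3 in S54F and 0 in EMD-/y. The share of all genes lower was 2.89% to 14.9% at day 1 and 2.96% to 15.6% at day 2. At day 2 the counts were 13 in Δ95–99, 18 in Q133H, 4 in +EMD and 0 in S54F and EMD-/y. Over the 5 lines, 2 of 90 ratios to wildtype were past 2-fold higher at day 1 and 4 of 90 at day 2. The share of all genes higher was 4.79% to 9.70% at day 1 and 5.02% to 18.2% at day 2. The summed level of 8 myogenic progenitor markers, 7 or 8 of which reached 10 in a group, was 47278 to 65239 at day 0, 37876 to 105643 at day 1 and 76735 to 195099 at day 2, with wildtype highest at the later days. Des was the largest part of this sum in every line at days 1 and 2, with 59689 in wildtype at day 2. Pax7, of the same list, had another order. Its day 2 level was 52.3 in wildtype, 327 in EMD-/y, 739 in +EMD, 8.34 in Q133H, 1026 in Δ95–99 and 432 in S54F. That of 10 fibroblast and fibro-adipogenic markers, 6 to 8 of which reached 10, was 21718 to 65019.7, 23691 to 79819 and 15836 to 54441. At most 1 of 6 adipocyte, 2 of 6 endothelial and 2 of 7 immune markers reached 10 in a group, with summed levels of at most 112, 52.1 and 273. The part of these markers in the values of the cyclins and kinases was not tested.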

How the data were processed

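RNA was sequenced from 54 samples in 18 groups, 6 lines at 3 days. According to the methods and the submitters' processing notes, SOAPnuke filtered the reads, HISAT2 placed them on mm10, and DESeq2 was run on pairs of groups. The counting tool and annotation were not given in the sources used here. The 27 deposited tables hold the signal used here, the authors' mean of normalized counts in each of 2 groups, with a gene length in bases. They also hold the authors' own comparison (fold changes, p-values, adjusted p-values and a direction), which was not used. There were 0 columns of values per sample, so no replicate spread, interval or test could be had, and the depth of single samples is unknown.

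Gene numbers were matched to symbols through RefSeq GRCm38.p6 (15658 to 16323 of 17215 to 17876 per table). The log2 ratio of the 2 means was taken within a table, with no pseudocount, and a gene with 1 mean at 0 and the other past the minimum counted as past the limit. Genes with a higher mean of at least 10 entered the background, 13118 to 13593 per table. Levels per kilobase use the tables' gene lengths. Near-identical copies were sought with minimap2 2.31-r1302, keeping alignments of at least 200 bases and 97% identity. Values were computed in Python 3.11.15 with pandas 2.3.3, numpy 2.4.6 and scipy 1.17.1 and drawn with matplotlib 3.10.9, and the counting of ratios was tested on simulated data.

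The members and gene lists were chosen with earlier results of these data known. All 10 members and Emd are named. From each list of other cyclins, other kinases, direct regulators, cyclin degradation and proliferation markers, the gene with the largest median log2 ratio in size in each of the 5 families of comparisons is named, if its higher mean reached 10 in every table. The 3 genes most like Ccnb1 and the 3 most like Ccnd1 are named by Pearson r. Marker lists are given by counts, summed levels and defining markers. Alternatives were limits of 1.5-fold and 3-fold, no minimum, a minimum of 100, a pseudocount of 10, centring on the median gene, scaling to the same sum, the lowest and highest table for levels, and Spearman's rho for likeness.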

Additional observations from a re-analysis of the deposited data

How the results depend on the processing

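No paired analysis was possible because the tables hold group means without values per sample, and for the same reason no replicate could be left out. With a limit of 1.5-fold instead of 2-fold, the gene and line pairs against wildtype were 1 higher and 2 lower at day 0 (0 and 0 at 2-fold) and 19 higher at day 1 (10 at 2-fold). From day 0 to day 1 they were 5 higher and 15 lower (0 and 7), and from day 1 to day 2 they were 3 higher (0). With 3-fold they were 4 higher and 0 lower against wildtype at day 1 (10 and 2), and 1 lower from day 0 to day 1. The share of all genes past 1.5-fold or 3-fold was not counted. These counts therefore show only how the limit moves them and cannot be set against a background. Scaling to the same sum gave 1 higher from day 0 to day 1, Ccne2 in +EMD. Of the 270 log2 ratios, 9 were short of the 2-fold limit by less than 0.1 and 6 past it by less than 0.1. Under the same-sum scaling 14 ratios took the other sign, the largest of them 0.14 in size, and 2 crossed the limit, Ccna2 in +EMD against wildtype at day 1 and Ccne2 in +EMD from day 0 to day 1. Under centring 2 crossed it as well: Cdk1 in wildtype from day 0 to day 1 was no longer past it, which left 6 lower, and Ccne2 in EMD-/y at day 2 was past it, which gave 29 higher instead of 28. Taking the lowest instead of the median table moved the median level over genes and groups from 2197 to 2086. The lowest table cannot lie above the median, so only the size of this move is informative. Under a pseudocount of 10 no ratio crossed the limit, and the largest move was 0.42. By Spearman's rho over the 18 groups, Ccna2, Ttk and Sgo1 had 0.953, 0.874 and 0.971 with Ccnb1, at ranks 39, 785 and 7 among 11030 genes. Gpr137b, Eps8 and Arf6 had 0.864, 0.847 and 0.930 with Ccnd1, at ranks 274, 439 and 12. Which genes are named as most like Ccnb1 or Ccnd1 therefore depends on the measure.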
